A study of Quercus robur with 165 samples.

Results

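*PIN2* of pedunculate oak (*Quercus robur*) is the assembled gene MSTRG.5844, 1 of the 35397 genes with expression values in the deposited tables. It was chosen by name, because the primer list of the study's RT-qPCR panel pairs the symbol *PIN2* with this gene, and not for any measured value. The name rests on that list, since the gene's own sequence was not used here. Its values are described over all 55 groups of 3 libraries each.

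The study sequenced RNA from dissected roots of oak seedlings to follow how taproots and lateral roots grow, stop growing and differ from each other. Dataset 1 holds 25 groups, and Dataset 2 holds 30 groups, raised from 2-year-old acorns of the same lot except for the transplanted seedlings. The 3 libraries of a group are described as independent biological samples, but whether 1 library holds the roots of 1 seedling or of several is not given in the sources used here. The p-values measure the spread between libraries, which may be partly technical. Where a comparison holds several matched pairs of groups, they also take in the disagreement between pairs. Genes carry assembly numbers with no gene annotation in these tables, and the dissected zones were therefore not checked against marker genes.

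A group is named by its code. SW is the elongation zone of the taproot, KB a lateral root and K the meristematic zone of the taproot. Roots were long (dl), medium (sr) or short (kr). They were thick and dying (TT), dying (NT), thick but still growing (TN) or normal (NN). The study's methods give these classes for the taproot. The labels attach them to lateral roots too and do not say whether the lateral root itself or its taproot is meant, so lateral roots are named below by their class only. Seedlings grew in a container first and then in a rhizotron after transplanting (krh), in a rhizotron, which is a flat chamber with clear walls (rh), or in a container in which roots that reach the bottom are pruned by air (kon). Transplanted seedlings had spent 1 year in a container and were harvested 8 weeks after transplanting, so that transplanting and seedling age cannot be told apart. In Dataset 1 a leading digit gives the harvest, where 3 stands for seedlings aged 8 weeks that were sown in summer, 2 for seedlings aged 8 weeks that were sown in spring and 1 for seedlings aged 7 weeks that were sown in spring. Elongation zones were sampled in Dataset 2 and lateral roots and meristematic zones in both datasets. The description of 1K_dl_NN_kon calls its roots short where the code says long, and that of K_dl_NT_krh leaves out that the roots were dying. Both were used by their codes, and comparisons that hold them were repeated without them.

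PIN2 belongs to the PIN family of auxin efflux carriers, plasma membrane proteins whose placement on 1 side of a cell sets the direction in which the hormone auxin leaves it. In *Arabidopsis thaliana*, PIN2 is made in the epidermis, the cortex and the lateral root cap of the root tip, carries auxin away from the tip towards the shoot, and is needed for the root to bend with gravity.

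The sequences that tie the name *PIN2* to this gene are the primers of the study's RT-qPCR assay. They are the designed oligonucleotides themselves, written 5′ to 3′ in the sense of each primer.
PIN2 forward: tcttcacaccagaccagtgc
PIN2 reverse: ggaaggaaagtaatggaactgc
The forward primer has 20 bases, 11 of them G or C, and the reverse primer has 22 bases, 10 of them G or C.

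Expression was measured as the expected count, the number of read pairs assigned to a gene, and as TPM, the share of transcripts in the library after correction for gene length. A library of Dataset 1 held 20037169 to 24793325 expected counts in total, and a library of Dataset 2 held 22882800 to 33341476. The expected count of *PIN2* was a whole number within 0.005 in every library. Libraries of a group were often nearly the same, since 74 of the pairs of libraries within groups, 3 pairs in each of the 55 groups, had a coefficient of variation under 0.05 beyond counting noise. This coefficient, taken over abundant genes, was 0 for libraries 1 and 2 of SW_sr_NT_rh. Over all genes with at least 20 counts, their variance was 1.52 times that of counting alone. In every pair within a group it was at least 1.36 times. Whether near-identical libraries are separate biological samples cannot be told from these ratios. All libraries were kept as separate samples in the fits reported. Merging the near-identical libraries, run as an alternative, left 17 groups with 1 independent unit, 24 groups with 2 and 14 groups with 3. Near-identity also crossed a group border: libraries 2 and 3 of 2K_dl_NT_kon matched library 3 of 2K_dl_NN_rh, and library 2 also matched its library 2, with coefficients of 0.0312 to 0.0451. Library 1 of 2K_dl_NT_kon was nearest to library 2 of 1K_dl_NT_kon. Which of the labels these libraries belong to was not tested. Comparisons and part levels that rest on 2K_dl_NT_kon or 2K_dl_NN_rh are therefore given with and without them.

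*PIN2* was abundant in meristematic zones of normal taproots, lower in most lateral roots and lower still in most elongation zones. In Dataset 1 the median of the group means was 8.49 TPM in lateral roots (9 groups) and 40.8 TPM in meristematic zones (16 groups), or 39.2 TPM without 2K_dl_NT_kon and 2K_dl_NN_rh (14 groups). In Dataset 2 it was 1.26 TPM in elongation zones (10 groups), 23.0 TPM in lateral roots (7 groups) and 32.9 TPM in meristematic zones (13 groups). Of the 30 elongation zone libraries, 13 held 0 to 24 counts of *PIN2* and 17 held 54 to 483. Levels were not compared between the datasets. All libraries are bulk samples, in which fewer cells of a type and less RNA per cell cannot be told apart.

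**Figure D1:**
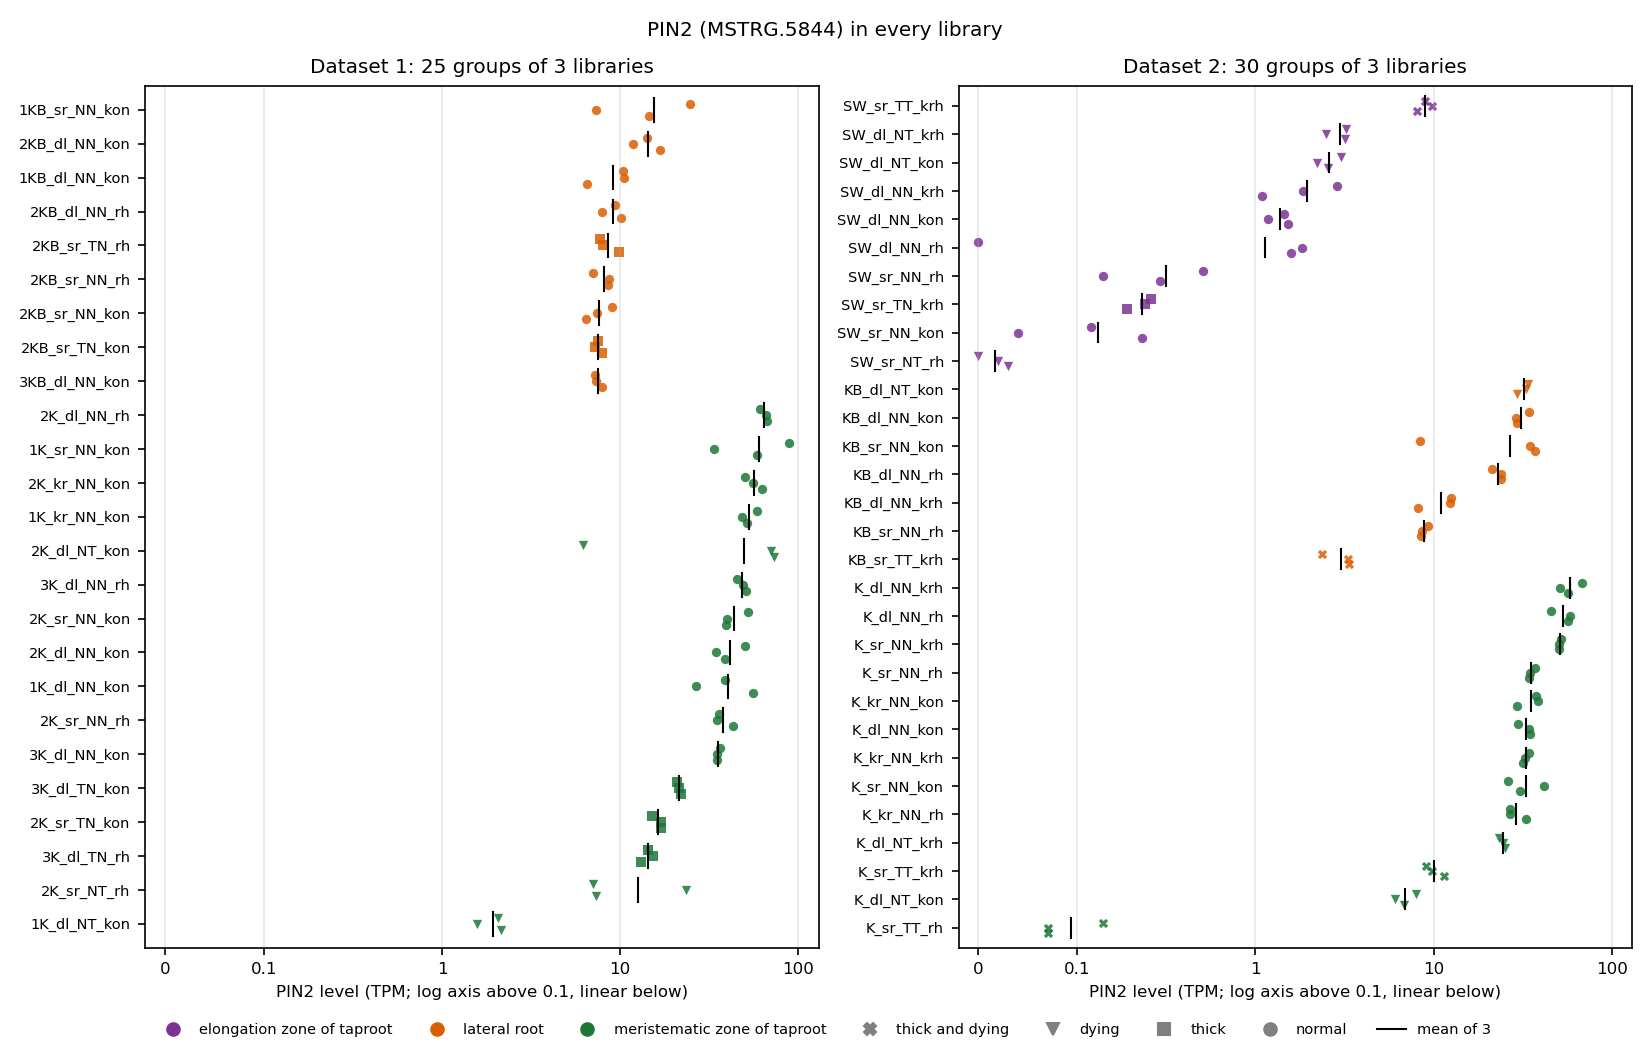
*PIN2* level in TPM on a log axis (linear below 0.1) in each library, by group, with root part as colour, root condition as symbol and the mean of 3 libraries as a bar. Normal meristematic zones lie between 26.3 and 88.6 TPM, while elongation zones lie between 0 and 9.85 TPM.

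Among the 30 libraries from normal meristematic zones of Dataset 1, *PIN2* was lowest at 26.8 TPM, had a median of 48.6 TPM and was highest at 88.6 TPM. The 27 such libraries of Dataset 2 had 26.3 TPM at the lowest, a median of 34.8 TPM and 67.7 TPM at the highest. No normal meristematic zone was therefore without the transcript. Lateral roots of the normal class had 6.40 to 24.7 TPM in Dataset 1 (21 libraries, median 8.67 TPM) and 8.16 to 37.1 TPM in Dataset 2 (15 libraries, median 21.3 TPM). Normal elongation zones had 0 to 2.88 TPM (15 libraries, median 1.09 TPM). The elongation zones thus lay wholly below both other parts, whereas lateral roots and meristematic zones of Dataset 2 overlapped.

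In the order of group means of Dataset 1, the first 11 places were taken by meristematic zones, 10 of them normal and 1 labelled dying. They ran downwards from 2K_dl_NN_rh (64.5 ± 2.85 TPM, SD, n = 3), 1K_sr_NN_kon (60.2 ± 27.6 TPM) and 2K_kr_NN_kon (56.4 ± 6.28 TPM) to 3K_dl_NN_kon (35.3 ± 0.704 TPM). Neighbours among these 11 groups overlapped in their libraries. The first gap followed, to the thick taproots 3K_dl_TN_kon (21.4 ± 0.596 TPM), and a second to 2K_sr_TN_kon (16.3 ± 1.05 TPM). Lateral roots and the remaining thick and dying taproots then overlapped down to 3KB_dl_NN_kon (7.46 ± 0.379 TPM). The lowest group was the dying taproots 1K_dl_NT_kon (1.92 ± 0.309 TPM), below every other group of the dataset. Without 2K_dl_NT_kon and 2K_dl_NN_rh the order begins with 1K_sr_NN_kon. In all, 21 of the 24 neighbours in this order overlapped.

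In Dataset 2 the order began with K_dl_NN_krh (58.5 ± 8.49 TPM), K_dl_NN_rh (53.4 ± 6.87 TPM) and K_sr_NN_krh (51.0 ± 0.641 TPM), whose libraries overlapped. A gap separated them from K_sr_NN_rh (35.4 ± 1.38 TPM), after which the remaining normal meristematic zones, container-grown lateral roots, K_dl_NT_krh and KB_dl_NN_rh overlapped in sequence. The transplanted lateral roots KB_dl_NN_krh had 11.04 ± 2.499 TPM and did not overlap with KB_dl_NN_rh, the group above, with 23.0 ± 1.54 TPM. The last 10 places went to elongation zones, with 1 exception: the thick and dying meristematic zones K_sr_TT_rh (0.0933 ± 0.0404 TPM) stood just above SW_sr_NT_rh (0.0167 ± 0.0153 TPM), the lowest of all groups. Of the 29 neighbours in this order, 24 overlapped.

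The spread between libraries was large in some groups. The coefficient of variation between libraries was 87.3% in SW_dl_NN_rh, whose libraries had 0, 1.83 and 1.58 TPM, and 75.9% in 2K_dl_NT_kon, whose libraries had 6.18, 70.1 and 72.9 TPM. It was 74.8% in 2K_sr_NT_rh, with 6.99, 23.4 and 7.27 TPM, and 59.6% in KB_sr_NN_kon, with 8.39, 34.8 and 37.1 TPM. In each of these 4 groups 1 library stood apart from a pair of libraries close to each other. In 1KB_sr_NN_kon it was 56.2%, with 24.7, 7.32 and 14.6 TPM spread more evenly. Values of 91.7% in SW_sr_NT_rh, 73.4% in SW_sr_NN_kon and 59.4% in SW_sr_NN_rh belong to libraries with at most 24 counts. Over abundant genes and beyond counting noise, library 1 of KB_sr_NN_kon was nearest to library 1 of KB_sr_NN_rh (0.171), where *PIN2* had 9.26 TPM. The nearest library of its own group was at 0.262.

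The tests reported below asked whether *PIN2* differed between matched groups, which share every other feature of the code. There were 30 such comparisons and 1 test of an interaction, each fitted over all genes with edgeR's quasi-likelihood test, with p-values adjusted over all genes by the Benjamini-Hochberg method and a threshold of 0.05. Fold changes are log2 of the first-named over the second-named group. *PIN2* passed the test in 10 of the 31, with a negative value in 8 and a positive value in 2. The share of all tested genes that passed is given beside each comparison as its background, and the median log2 fold change over all genes lay between -0.03 and 0.03 in every comparison.

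**Figure D2:**
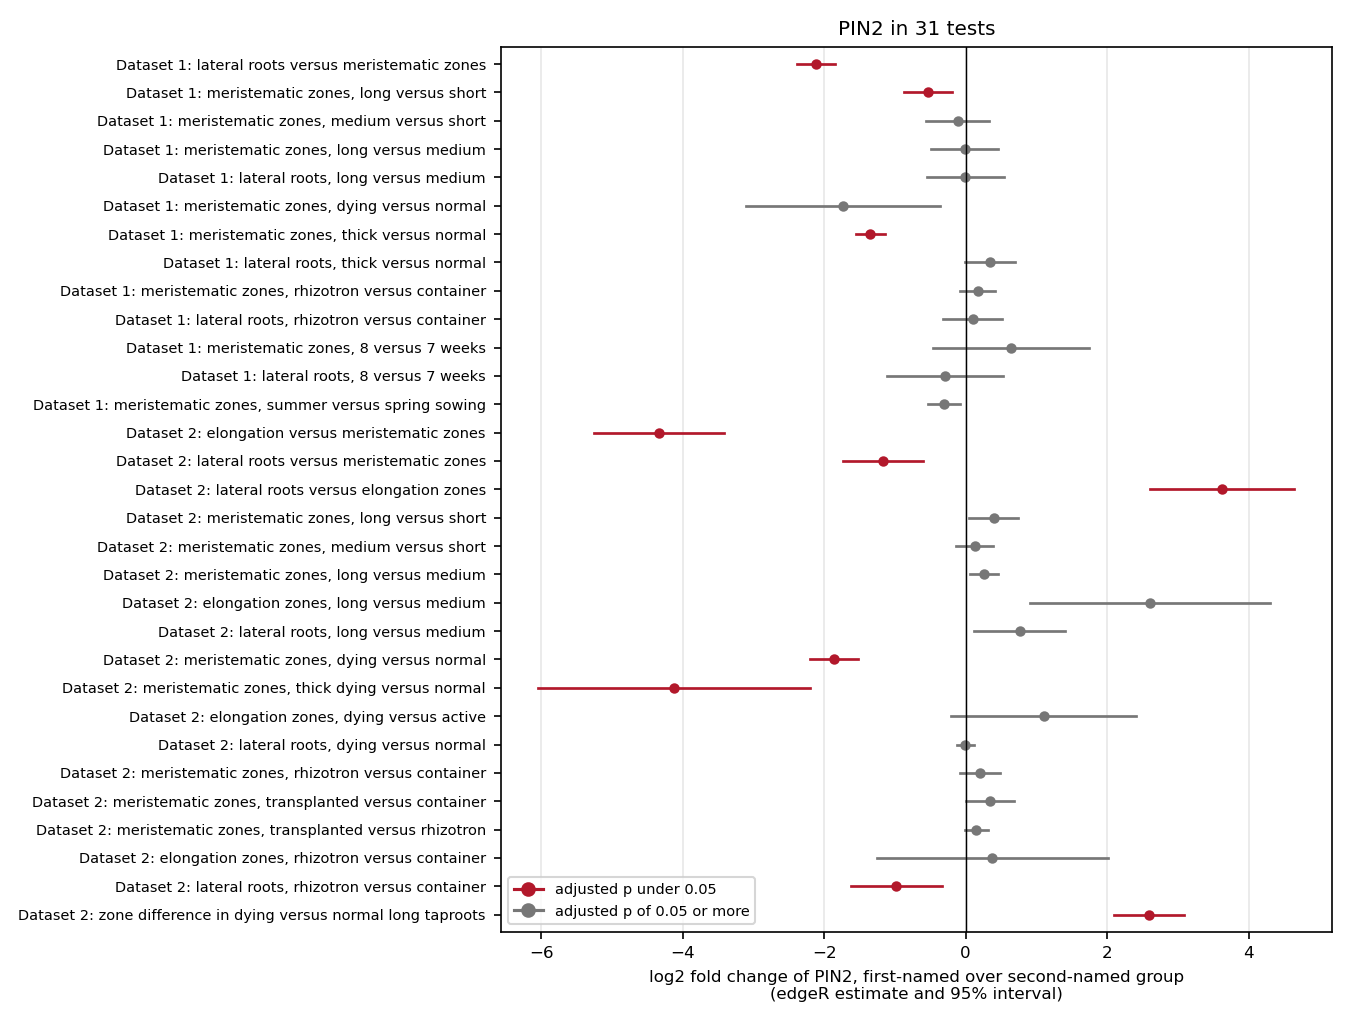
Log2 fold change of *PIN2* with its 95% interval in 31 tests, the first-named group over the second-named one, with those past an adjusted p of 0.05 in red. The lowest estimate, -4.34, belongs to elongation zones against meristematic zones, and most comparisons of length and cultivation lie within 1 log2 unit of 0.

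*PIN2* was lower in lateral roots than in meristematic zones of the taproot in all 8 matched pairs of Dataset 1. The 24 libraries from lateral roots had 6.40 to 24.7 TPM (median 8.23 TPM), and the 24 libraries from meristematic zones had 15.1 to 88.6 TPM (median 38.8 TPM). Within every pair, all 3 lateral root libraries lay below all 3 taproot libraries. The log2 fold change was -2.12 (SE 0.133, adjusted p = 2.88e-18, edgeR), where 72.9% of all genes tested passed. An exact two-sided permutation test over the 8 pairs, by sign changes, gave p = 0.00781, the smallest it can give.

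The gap varied between pairs. It was widest in the long class in rhizotrons, where the lateral roots 2KB_dl_NN_rh had 9.31, 7.93 and 10.1 TPM, against 61.2, 65.7 and 66.5 TPM in the taproots 2K_dl_NN_rh. It was narrowest in the thick class in containers, where the lateral roots 2KB_sr_TN_kon had 7.54, 7.20 and 7.87 TPM, against 15.1, 16.9 and 16.9 TPM in the taproots 2K_sr_TN_kon. The means of the lateral roots in these pairs, 9.10 and 7.54 TPM, lay closer together than those of the taproots, 64.5 and 16.3 TPM. Ratios of the group means of CPM, counts scaled to a common library size, ran between -3.06 and -1.16 on the log2 scale over the 8 pairs. Without the pair that holds 2K_dl_NN_rh the fold change was -1.99 (adjusted p = 7.92e-16), and with normal roots alone it was -2.25 (adjusted p = 2.66e-17).

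Elongation zones held far less *PIN2* than the meristematic zones of matched taproots in Dataset 2. The 24 libraries from elongation zones had 0 to 9.85 TPM (median 1.71 TPM), and the 24 libraries from meristematic zones had 6.08 to 67.7 TPM (median 32.4 TPM). This corresponded to a log2 fold change of -4.34 (SE 0.454, adjusted p = 4.09e-11), where 65.3% of all genes tested passed. The group mean was lower in the elongation zone in all 8 pairs, with an exact two-sided permutation p = 0.00781 over pairs, the smallest possible. In 7 of the 8 pairs the libraries did not overlap.

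Normal roots of medium length showed the widest gap. SW_sr_NN_kon had 0.12, 0.04 and 0.23 TPM, against 26.3, 41.7 and 30.6 TPM in K_sr_NN_kon, and SW_sr_NN_rh had 0.51, 0.14 and 0.29 TPM, against 36.9, 34.8 and 34.3 TPM in K_sr_NN_rh. These elongation zones rested on few reads, since libraries 1 and 2 of SW_sr_NN_kon held 6 and 2 counts of *PIN2*. Long normal roots had somewhat more transcript in the elongation zone. SW_dl_NN_kon had 1.44, 1.18 and 1.52 TPM, against 29.7, 34.5 and 34.7 TPM in K_dl_NN_kon, and SW_dl_NN_krh had 2.88, 1.85 and 1.09 TPM, against 67.7, 51.0 and 56.9 TPM in K_dl_NN_krh. In SW_dl_NN_rh the libraries had 0, 1.83 and 1.58 TPM, against 45.5, 58.1 and 56.5 TPM in K_dl_NN_rh. Library 1 of SW_dl_NN_rh held 0 counts among 31550106, which allows up to 3 counts or 0.095 CPM by counting error alone. By the coefficient of variation over abundant genes, that library was nearest to library 2 of SW_sr_NN_kon (0.256), a group in which *PIN2* was almost absent too. The nearest library of its own group was little farther, at 0.272. Whether its label is right was not tested.

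Dying roots showed a narrower gap between the zones. SW_dl_NT_kon had 3.01, 2.21 and 2.56 TPM, against 7.92, 6.08 and 6.79 TPM in K_dl_NT_kon, and SW_dl_NT_krh had 3.21, 2.49 and 3.20 TPM, against 23.4, 24.6 and 25.3 TPM in K_dl_NT_krh. In thick and dying transplanted roots the zones overlapped, with 8.91, 9.85 and 8.02 TPM in SW_sr_TT_krh, against 9.11, 9.82 and 11.4 TPM in K_sr_TT_krh. With normal roots alone, the fold change between elongation and meristematic zones was -5.89 (adjusted p = 2.22e-14, 5 pairs).

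**Figure D3:**
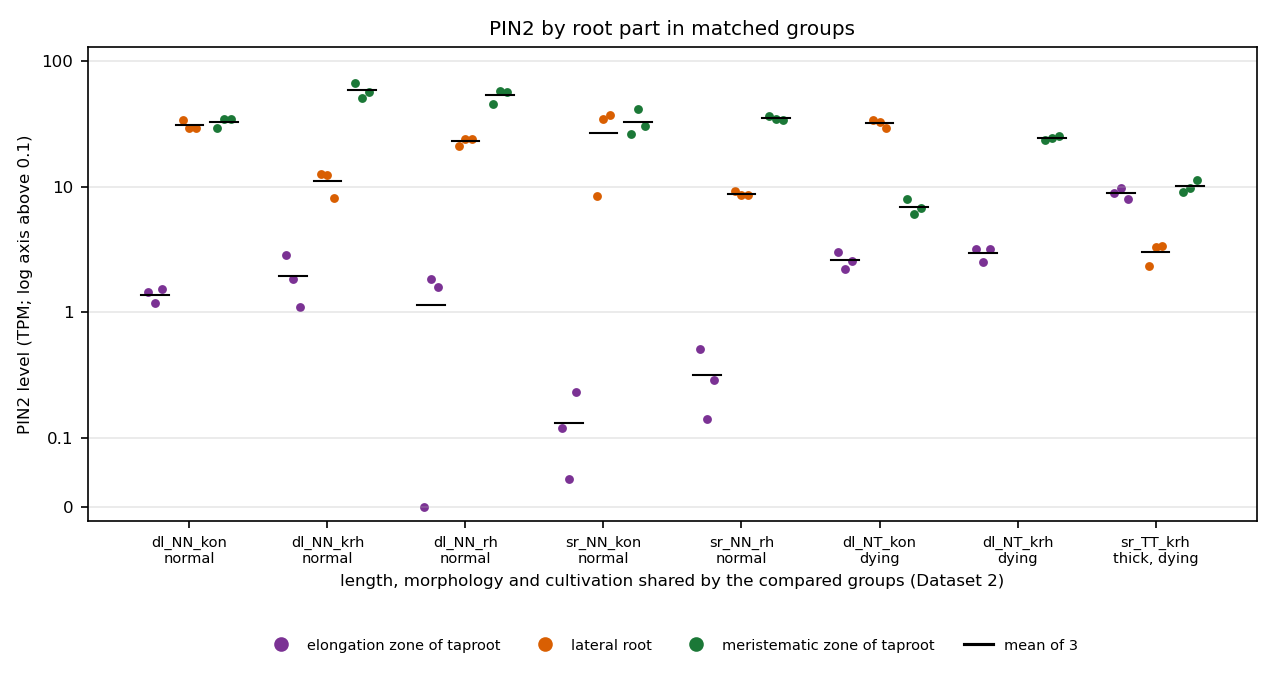
*PIN2* level in TPM on a log axis (linear below 0.1) by root part in matched groups of Dataset 2, with 1 point per library and the mean of 3 as a bar. Elongation zones lie at 0 to 2.88 TPM in the 5 normal sets, below all meristematic zones, and reach 8.93 TPM on average in thick and dying roots, where meristematic zones average 10.1 TPM.

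Whether the gap between zones differed between dying and normal taproots was tested directly in long roots from containers and after transplanting. In dying roots the 6 elongation zone libraries had 2.21 to 3.21 TPM, against 6.08 to 25.3 TPM in the 6 meristematic zone libraries. In normal roots the elongation zones had 1.09 to 2.88 TPM, against 29.7 to 67.7 TPM in the meristematic zones. The interaction was 2.59 on the log2 scale (SE 0.238, adjusted p = 2.23e-07), a smaller gap in dying roots, where 25.2% of all genes tested passed. The call was lost with near-identical libraries merged to 12 units (2.49, adjusted p = 0.237). It was 3.09 (adjusted p = 1.79e-15) in container roots alone, without the transplanted set whose labels conflict.

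Lateral roots of Dataset 2 had less *PIN2* than matched meristematic zones on average, but not in every pair. The 21 libraries from lateral roots had 2.35 to 37.1 TPM (median 21.3 TPM), and the 21 libraries from meristematic zones had 6.08 to 67.7 TPM (median 34.5 TPM). The log2 fold change was -1.16 (SE 0.278, adjusted p = 3.85e-04), where 67.1% of all genes tested passed. All libraries were lower in 4 of the 7 pairs, they overlapped in 2 and all were higher in 1. The exact two-sided permutation test over the 7 pairs gave p = 0.109.

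The pairs whose libraries overlapped came from containers. KB_dl_NN_kon had 34.3, 29.2 and 29.4 TPM, against 29.7, 34.5 and 34.7 TPM in K_dl_NN_kon. KB_sr_NN_kon had 8.39, 34.8 and 37.1 TPM, against 26.3, 41.7 and 30.6 TPM in K_sr_NN_kon. The log2 ratios of their group means of CPM were -0.24 and -0.61. The single pair in the opposite direction was that of dying container roots, with 34.04, 32.9 and 29.3 TPM in the lateral roots KB_dl_NT_kon, against 7.92, 6.08 and 6.79 TPM in the taproots K_dl_NT_kon. Rhizotron and transplanted roots followed the direction of Dataset 1. KB_dl_NN_krh had 12.6, 12.4 and 8.16 TPM, against 67.7, 51.0 and 56.9 TPM in K_dl_NN_krh, and KB_sr_NN_rh had 9.26, 8.62 and 8.53 TPM, against 36.9, 34.8 and 34.3 TPM in K_sr_NN_rh. With normal roots alone, the fold change was -1.43 (adjusted p = 1.74e-06) over 5 pairs, in all of which the lateral roots had the lower mean.

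Against elongation zones, lateral roots had more *PIN2*. The 21 libraries from lateral roots had 2.35 to 37.1 TPM (median 21.3 TPM), and the 21 libraries from elongation zones had 0 to 9.85 TPM (median 1.52 TPM). The edgeR fit gave a log2 fold change of 3.63 (SE 0.501, adjusted p = 1.11e-07), where 54.2% of all genes tested passed, and the exact two-sided permutation test over 7 pairs gave p = 0.0313. All lateral root libraries were higher in 6 pairs. The other pair, of the thick and dying class of transplanted seedlings, had 2.35, 3.31 and 3.36 TPM in KB_sr_TT_krh, against 8.91, 9.85 and 8.02 TPM in SW_sr_TT_krh.

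The length of the taproot stands in this study for the progress of taproot growth. Of the comparisons by length in meristematic zones, only that of long with short taproots in Dataset 1 passed the test for *PIN2*. In Dataset 1 long taproots had a lower level than short ones, with 26.8 to 55.6 TPM (6 libraries, median 38.8 TPM), against 48.2 to 62.8 TPM (6 libraries, median 53.7 TPM). The log2 fold change was -0.53 (SE 0.156, adjusted p = 0.0218), where 30.9% of all genes passed, and the libraries overlapped in both pairs. The call was lost without replicate 2 (-0.38, adjusted p = 0.184) and without replicate 3 (-0.60, adjusted p = 0.0502). Without the pair of 1K_dl_NN_kon, whose labels conflict on length, it was -0.59 (adjusted p = 0.0389).

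Medium taproots did not differ detectably from short ones in Dataset 1, with 33.5 to 88.6 TPM (median 46.0 TPM), against 48.2 to 62.8 TPM (median 53.7 TPM). The fold change was -0.11 (95% interval -0.55 to 0.33, adjusted p = 0.837). The background was 0% here: edgeR called 0 of 22460 genes, with 3458 at an unadjusted p under 0.05, while DESeq2 called 667 and limma 1. Long against medium taproots gave -0.01 (95% interval -0.49 to 0.46, adjusted p = 0.989), where 0.0249% of genes passed, and the pairs went in both directions. In rhizotrons the long taproots 2K_dl_NN_rh had 61.2, 65.7 and 66.5 TPM, against 36.0, 34.9 and 43.0 TPM in the medium taproots 2K_sr_NN_rh. In containers at 8 weeks the long taproots 2K_dl_NN_kon had 50.4, 34.7 and 38.8 TPM, against 52.3, 39.7 and 39.2 TPM in 2K_sr_NN_kon. At 7 weeks the long taproots 1K_dl_NN_kon had 38.9, 26.8 and 55.6 TPM, against 88.6, 33.5 and 58.6 TPM in 1K_sr_NN_kon. The groups harvested at 7 weeks had the widest spread. Without the rhizotron pair, which holds 2K_dl_NN_rh, the fold change was -0.44 (adjusted p = 0.255).

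In Dataset 2 the estimate over all pairs was positive, and no call passed. It pooled container, rhizotron and transplanted pairs, whereas both pairs of Dataset 1 came from containers. In the container pair of Dataset 2 the log2 ratio of group means of CPM was -0.50, against -0.51 and -0.59 in the pairs of Dataset 1. These ratios rest on the scaling, and the scaling factor of K_kr_NN_kon, 0.858, was the lowest of Dataset 2. In TPM the means of that pair were closer, with 32.9 in K_dl_NN_kon against 35.3 in K_kr_NN_kon. The long and short means of Dataset 1 were 40.4 against 52.7 TPM and 41.3 against 56.4 TPM. Long taproots had 29.7 to 67.7 TPM (9 libraries, median 51.0 TPM), against 27.0 to 38.5 TPM in short taproots (9 libraries, median 32.6 TPM). The estimated fold change was 0.40 (95% interval 0.05 to 0.75, adjusted p = 0.212), where 2.12% of all genes passed. The split followed cultivation: all libraries of long taproots were higher after transplanting and in rhizotrons, but not in containers. K_dl_NN_krh had 67.7, 51.0 and 56.9 TPM, against 34.3, 32.6 and 31.9 TPM in K_kr_NN_krh. K_dl_NN_rh had 45.5, 58.1 and 56.5 TPM, against 27.0, 27.0 and 33.0 TPM in K_kr_NN_rh. K_dl_NN_kon had 29.7, 34.5 and 34.7 TPM, against 37.8, 38.5 and 29.5 TPM in K_kr_NN_kon. This split by cultivation was not tested.

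Medium taproots of Dataset 2 lay between the other lengths on average. Their fold change was 0.13 against short ones (95% interval -0.13 to 0.38, adjusted p = 0.539, background 2.87%), and that of long against medium taproots was 0.26 (95% interval 0.06 to 0.45, adjusted p = 0.140, background 3.16%). After transplanting, the medium taproots K_sr_NN_krh had 51.7, 50.5 and 50.7 TPM and lay near the long ones.

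In elongation zones and lateral roots, no difference with taproot length passed the test, though some estimates were larger. In elongation zones, long roots had 0 to 1.83 TPM (6 libraries, median 1.48 TPM), against 0.04 to 0.51 TPM in medium roots (6 libraries, median 0.185 TPM). The fold change was 2.61 (SE 0.773, adjusted p = 0.0779), where 5.22% of all genes passed. It crossed the threshold without replicate 1 (3.18, adjusted p = 0.0148), the number that includes the library of SW_dl_NN_rh with 0 counts, and with DESeq2 (2.66, adjusted p = 0.0102).

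Lateral roots of the long class of Dataset 2 had 21.3 to 34.3 TPM (6 libraries, median 26.6 TPM), against 8.39 to 37.1 TPM in those of the medium class (6 libraries, median 8.94 TPM), with a fold change of 0.76 (SE 0.296, adjusted p = 0.0854, background 20.5%). KB_dl_NN_rh had 21.3, 23.9 and 23.97 TPM, all above the 9.26, 8.62 and 8.53 TPM of KB_sr_NN_rh. In lateral roots of Dataset 1 the fold change between the long and the medium class was 0.00 (95% interval -0.55 to 0.54, adjusted p = 0.996, background 4.63%). There the pairs differed in direction: 2KB_dl_NN_kon had 14.2, 11.8 and 16.8 TPM, against 9.01, 7.39 and 6.40 TPM in 2KB_sr_NN_kon, whereas 1KB_dl_NN_kon had 10.4, 10.46 and 6.55 TPM, against 24.7, 7.32 and 14.6 TPM in 1KB_sr_NN_kon.

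Dying taproots had less *PIN2* in the meristematic zone than matched normal ones in Dataset 2. All 6 dying libraries lay below all 6 normal ones, with 6.08 to 25.3 TPM (median 15.7 TPM), against 29.7 to 67.7 TPM (median 42.8 TPM). In containers K_dl_NT_kon had 7.92, 6.08 and 6.79 TPM, against 29.7, 34.5 and 34.7 TPM in K_dl_NN_kon. After transplanting K_dl_NT_krh, the group whose description leaves out that its roots were dying, had 23.4, 24.6 and 25.3 TPM, against 67.7, 51.0 and 56.9 TPM in K_dl_NN_krh. Over all pairs the log2 fold change was -1.86 (SE 0.157, adjusted p = 2.48e-06), where 49.9% of all genes tested passed, and it was -1.77 (adjusted p = 0.0403) with near-identical libraries merged to 6 units. The call was kept without the transplanted pair, whose labels conflict. The container pair that remains had a log2 ratio of group means of CPM of -2.29.

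In Dataset 1 the same comparison rested on 3 pairs that disagreed. The dying taproots 1K_dl_NT_kon had 2.06, 1.57 and 2.14 TPM, against 38.9, 26.8 and 55.6 TPM in 1K_dl_NN_kon. The dying taproots 2K_sr_NT_rh had 6.99, 23.4 and 7.27 TPM, against 36.0, 34.9 and 43.0 TPM in 2K_sr_NN_rh. All dying libraries were lower in both pairs. In the remaining pair, 2K_dl_NT_kon had 6.18, 70.1 and 72.9 TPM, against 50.4, 34.7 and 38.8 TPM in 2K_dl_NN_kon, so that 1 dying library lay far below and the other two above the normal ones. Those other two are the libraries near-identical to 2K_dl_NN_rh. The log2 fold change was -1.74 (SE 0.651, adjusted p = 0.0965, background 10.2%) with all 3 pairs and -2.87 (SE 0.555, adjusted p = 0.00481) without that pair. Without the pair whose labels conflict, it was -0.59 (adjusted p = 0.722).

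Thick and dying taproots of medium length also had less *PIN2* and included the lowest meristematic level of all groups. K_sr_TT_rh had 0.14, 0.07 and 0.07 TPM, from 7, 4 and 4 counts, against 36.9, 34.8 and 34.3 TPM in K_sr_NN_rh. K_sr_TT_krh had 9.11, 9.82 and 11.4 TPM, against 51.7, 50.5 and 50.7 TPM in K_sr_NN_krh. The transcript was almost absent in the rhizotron roots and 4.26-fold lower in the transplanted ones by group means of CPM. The log2 fold change over both pairs was -4.12 (SE 0.878, adjusted p = 0.00154), where 60.9% of all genes passed, and it missed the threshold with near-identical libraries merged (-3.52, adjusted p = 0.0600).

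In taproots that were thick but still growing, the meristematic zone also had less *PIN2*, in all 3 pairs of Dataset 1 with no overlap. The 9 thick libraries had 13.0 to 22.03 TPM (median 16.9 TPM), against 34.8 to 52.3 TPM in the 9 normal ones (median 39.7 TPM). 3K_dl_TN_rh had 14.3, 15.3 and 13.0 TPM, against 45.3, 49.0 and 50.5 TPM in 3K_dl_NN_rh. 3K_dl_TN_kon had 20.8, 21.4 and 22.03 TPM, against 36.1, 35.02 and 34.8 TPM in 3K_dl_NN_kon. The drop was thus deeper in rhizotrons than in containers at this harvest, a difference that was not tested. The log2 fold change over the 3 pairs was -1.34 (SE 0.0998, adjusted p = 2.12e-08), where 45.0% of all genes tested passed.

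**Figure D4:**
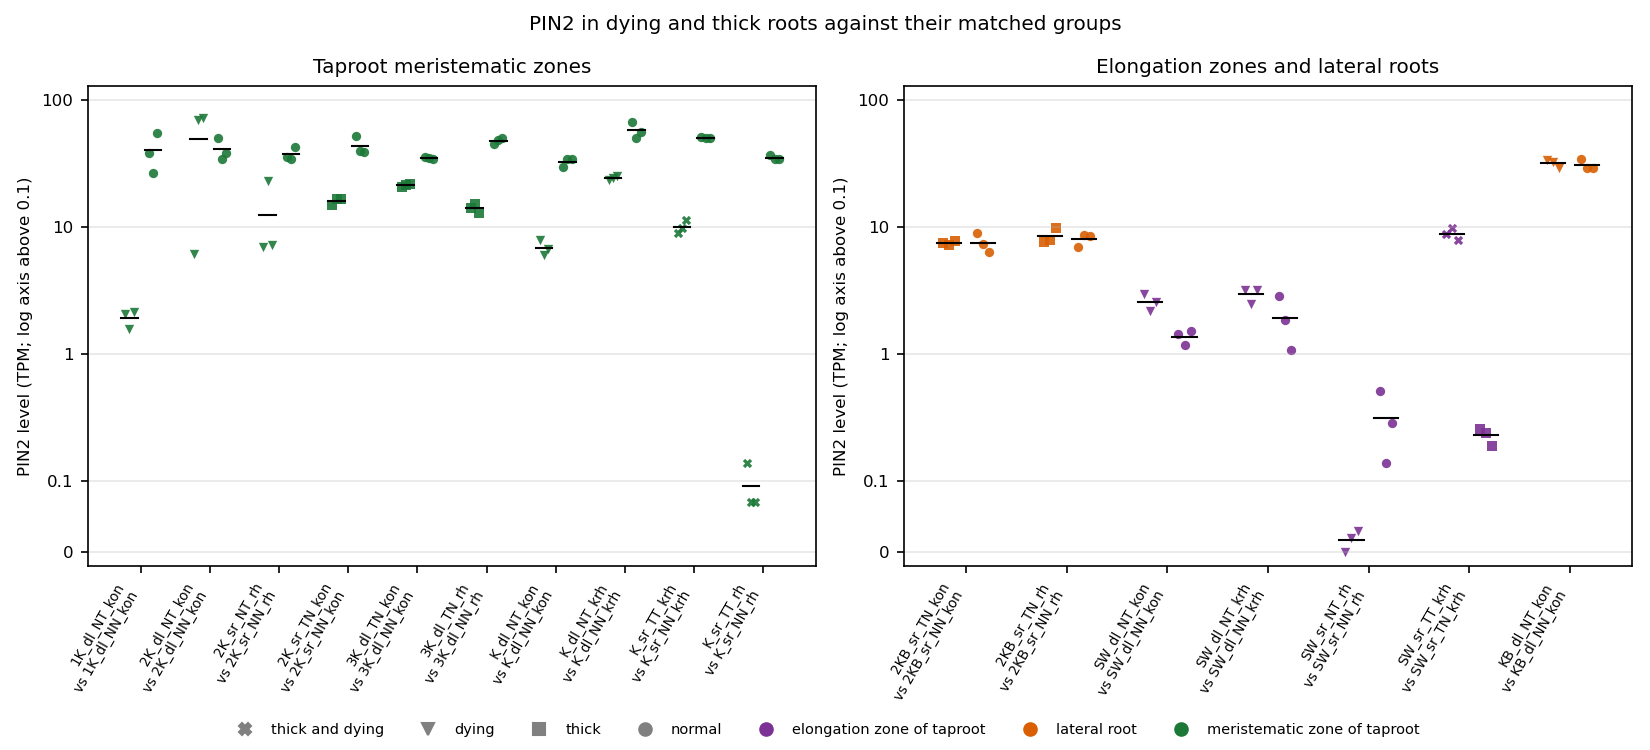
*PIN2* level in TPM on a log axis (linear below 0.1) in each library of the dying, thick, and thick and dying classes, drawn left of its matched group, with the mean of 3 as a bar. Meristematic zones are lower in 9 of the 10 pairs by all libraries, and 2K_dl_NT_kon, with 6.18, 70.1 and 72.9 TPM, is the exception.

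No such drop passed the test in elongation zones or in the lateral roots that had a matched normal group. Elongation zones of dying roots had 0 to 9.85 TPM (12 libraries, median 2.79 TPM), against 0.14 to 2.88 TPM in active roots (12 libraries, median 0.80 TPM). This corresponded to a log2 fold change of 1.10 (95% interval -0.21 to 2.41, adjusted p = 0.173), where 40.9% of all genes passed, and the pairs went both ways. SW_sr_TT_krh had 8.91, 9.85 and 8.02 TPM, against 0.26, 0.24 and 0.19 TPM in the thick active roots SW_sr_TN_krh. SW_dl_NT_kon had 3.01, 2.21 and 2.56 TPM, all above the 1.44, 1.18 and 1.52 TPM of SW_dl_NN_kon. In the other direction, SW_sr_NT_rh had 0, 0.02 and 0.03 TPM, from 0, 1 and 2 counts, against 0.51, 0.14 and 0.29 TPM in SW_sr_NN_rh.

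In lateral roots of the dying class, matched with a normal group only in containers, KB_dl_NT_kon had 34.04, 32.9 and 29.3 TPM, against 34.3, 29.2 and 29.4 TPM in KB_dl_NN_kon. The estimated fold change was 0.00 (95% interval -0.12 to 0.11, adjusted p = 0.965), where 30.5% of all genes passed. Lateral roots of the thick and dying class, KB_sr_TT_krh, had 2.35, 3.31 and 3.36 TPM, the lowest group mean among lateral roots of Dataset 2. They had no matched normal group, so a drop in them was not tested. In lateral roots of the thick class of Dataset 1 there were 7.20 to 9.84 TPM (6 libraries, median 7.78 TPM), against 6.40 to 9.01 TPM in those of the normal class (6 libraries, median 7.96 TPM). The fold change was 0.35 (95% interval -0.01 to 0.70, adjusted p = 0.146, background 21.5%). This estimate depends on the scaling of 2KB_sr_TN_rh, where the 20 most abundant genes held 46.4% of all counts, against 7.4% to 19.8% in the other 54 groups, and the scaling factor was 0.639. With library size alone the fold change was 0.10 (adjusted p = 0.608).

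No difference in *PIN2* between rhizotrons and containers was detected in meristematic zones. In Dataset 1 rhizotron taproots had 13.0 to 66.5 TPM (12 libraries, median 44.1 TPM), against 20.8 to 52.3 TPM in container taproots (12 libraries, median 35.6 TPM), with a fold change of 0.17 (95% interval -0.07 to 0.41, adjusted p = 0.345, background 16.5%). The pairs went in both directions. Long normal taproots were higher in rhizotrons, with 45.3, 49.0 and 50.5 TPM in 3K_dl_NN_rh, against 36.1, 35.02 and 34.8 TPM in 3K_dl_NN_kon, and thick ones were lower, with 14.3, 15.3 and 13.0 TPM in 3K_dl_TN_rh, against 20.8, 21.4 and 22.03 TPM in 3K_dl_TN_kon. Without the pair that holds 2K_dl_NN_rh the fold change was -0.04 (adjusted p = 0.840).

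Meristematic zones of Dataset 2 gave a like picture. Rhizotron taproots had 27.0 to 58.1 TPM (9 libraries, median 34.8 TPM), against 26.3 to 41.7 TPM in container taproots (9 libraries, median 34.5 TPM), with a fold change of 0.20 (95% interval -0.08 to 0.49, adjusted p = 0.433, background 5.18%). Transplanted taproots had 31.9 to 67.7 TPM (9 libraries, median 50.7 TPM). Their fold change was 0.34 against container taproots (95% interval 0.00 to 0.68, adjusted p = 0.155, background 15.7%) and 0.15 against rhizotron taproots (95% interval -0.01 to 0.31, adjusted p = 0.142, background 32.6%). The long and medium transplanted taproots were above the container ones in all libraries, and the short ones overlapped with them.

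In lateral roots of Dataset 2, rhizotron roots had less *PIN2* than container roots, with 8.53 to 23.97 TPM (6 libraries, median 15.3 TPM), against 8.39 to 37.1 TPM (6 libraries, median 31.9 TPM). The estimated fold change was -0.98 (SE 0.297, adjusted p = 0.0276), where 29.9% of all genes passed. KB_dl_NN_rh had 21.3, 23.9 and 23.97 TPM, all below the 34.3, 29.2 and 29.4 TPM of KB_dl_NN_kon. KB_sr_NN_rh had 9.26, 8.62 and 8.53 TPM, against 8.39, 34.8 and 37.1 TPM in KB_sr_NN_kon, where library 1 was at the rhizotron level. The call was lost without replicate 2 (adjusted p = 0.207), without replicate 3 (adjusted p = 0.202) and with near-identical libraries merged (-0.79, adjusted p = 0.40).

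The remaining comparisons of cultivation passed no threshold. In lateral roots of Dataset 1, rhizotron roots had 7.02 to 10.1 TPM (9 libraries, median 8.53 TPM), against 6.40 to 16.8 TPM in container roots (9 libraries, median 7.87 TPM), with a fold change of 0.10 (95% interval -0.32 to 0.52, adjusted p = 0.768, background 21.3%). This comparison includes 2KB_sr_TN_rh, whose scaling factor was 0.639, and its fold change turned negative with library size alone. In elongation zones, rhizotron roots had 0 to 1.83 TPM (6 libraries, median 0.40 TPM), against 0.04 to 1.52 TPM in container roots (6 libraries, median 0.705 TPM), with a fold change of 0.38 (95% interval -1.25 to 2.01, adjusted p = 0.781, background 9.65%). The medium roots held 2 to 24 counts per library and the interval is wide.

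No difference by harvest or sowing date passed the test. Short meristematic zones in containers had overlapping levels in seedlings aged 8 and 7 weeks: 2K_kr_NN_kon had 50.3, 56.0 and 62.8 TPM, against 58.4, 48.2 and 51.5 TPM in 1K_kr_NN_kon. The fold change over 4 pairs was 0.64 (95% interval -0.46 to 1.75, adjusted p = 0.527, background 3.39%) and it was -0.22 (adjusted p = 0.548) without the pair of dying roots 2K_dl_NT_kon and 1K_dl_NT_kon. In lateral roots it was -0.29 (95% interval -1.11 to 0.53, adjusted p = 0.687, background 12.6%). Summer-sown taproots had 34.8 to 50.5 TPM (6 libraries, median 40.7 TPM), against 34.7 to 66.5 TPM in spring-sown ones (6 libraries, median 55.8 TPM). The fold change was -0.31 (95% interval -0.54 to -0.08, adjusted p = 0.0552, background 20.2%) and -0.12 (adjusted p = 0.667) without the pair that holds 2K_dl_NN_rh.

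*PIN2* is 1 of 9 genes of the RT-qPCR panel, and the other 8 were followed beside it as a list, under symbols that the primer list gives without a full name. In lateral roots against meristematic zones of Dataset 1, 5 of the 8 rose and 3 fell, where 72.9% of all genes passed. *G3OX* fell with -4.04, *GST* with -3.31 and *GERL1* with -1.65, beside -2.12 for *PIN2*. *ACO1* rose with 2.93, and *PCC13* rose with 2.15. In elongation against meristematic zones of Dataset 2, 5 of the 8 also rose and 3 fell (background 65.3%). The falls were -4.01 for *G3OX*, -3.96 for *GST* and -1.08 for *ACO5*, beside -4.34 for *PIN2*. In dying against normal meristematic zones of Dataset 2, 2 of the 8 rose and 2 fell (background 49.9%), and those that fell were again *G3OX* (-2.95) and *GST* (-2.88). In thick against normal meristematic zones of Dataset 1, 3 rose and 3 fell (background 45.0%). Those that fell were *ACO5* (-2.48), *G3OX* (-2.10) and *GST* (-2.07). With 8 genes and backgrounds this high, the counts are no result about the panel. Elsewhere the genes parted from *PIN2*: in transplanted against rhizotron meristematic zones *G3OX* fell with -2.72 beside 0.15 for *PIN2*, in transplanted against container ones it fell with -2.62 beside 0.34, and in lateral roots of the dying against the normal class *GST* fell with -0.83 beside 0.00.

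As a description over the 25 group means of Dataset 1 and the 30 of Dataset 2, *G3OX* had Pearson correlations of 0.924 and 0.725 with *PIN2* in log2 CPM, and *GST* had 0.923 and 0.655. *CERD* had -0.643 and -0.453. *WRKY*, which bears the name of a family of transcription factors, had -0.306 and -0.254, and *GERL1* had -0.300 and -0.411. Values that differed between the datasets were those of *ACO5* (0.122 and 0.665), *ACO1* (-0.712 and 0.008) and *PCC13* (-0.667 and -0.280). The groups of a dataset share the split into root parts, so these values are not independent of it.

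Among the 19791 genes with a mean of at least 1 CPM in both datasets, the gene most like *PIN2* was MSTRG.4457, with Pearson correlations of 0.979 and 0.983 and Spearman correlations of 0.965 and 0.981. Without 2K_dl_NT_kon and 2K_dl_NN_rh the Pearson correlation in Dataset 1 was 0.977 over 23 groups, and the other correlations given here include both groups. It had 1.55 to 5.29 TPM in lateral roots (median 2.64 TPM), against 0.34 to 22.8 TPM in meristematic zones of Dataset 1 (median 11.8 TPM). In Dataset 2 it had 0 to 3.28 TPM in elongation zones and 0.88 to 9.23 TPM in lateral roots, against 0 to 17.9 TPM in meristematic zones. The next gene was MSTRG.23871, with 0.964 and 0.972. The genes most opposite were MSTRG.31849 (-0.814 and -0.865) and MSTRG.31771 (-0.807 and -0.850). In all, 38 genes had a correlation over 0.9 with *PIN2* in both datasets, while the median over all genes was 0.02 in Dataset 1 and 0.00 in Dataset 2. These 4 genes carry no name in the tables used here.

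**Figure D5:**
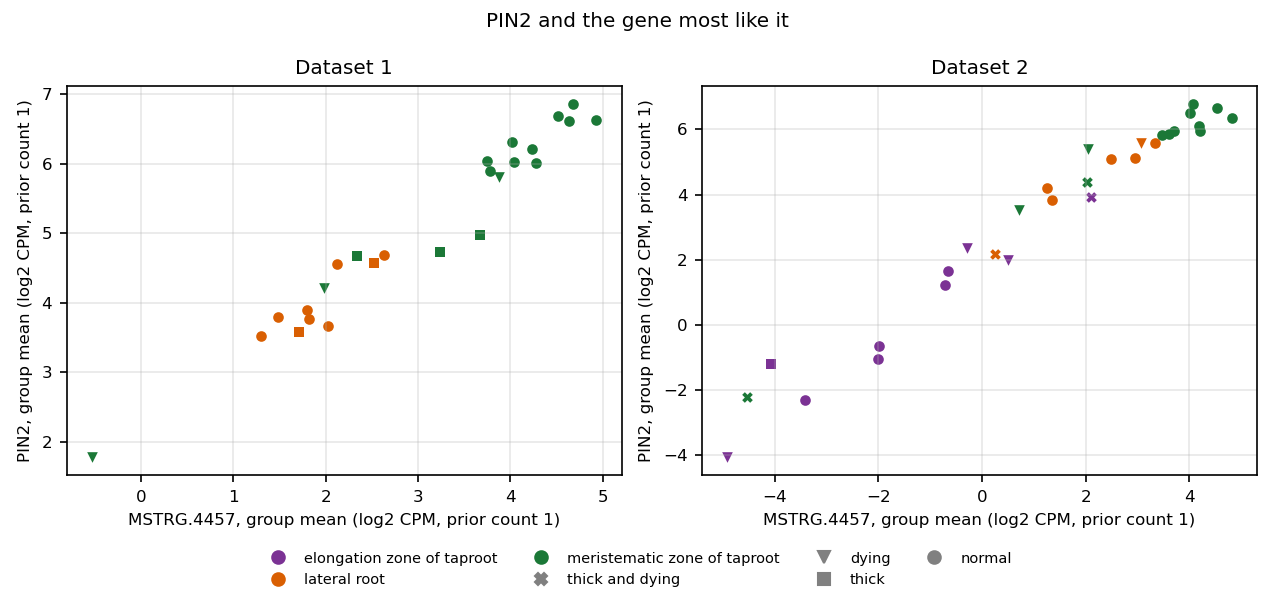
Group means of *PIN2* against those of MSTRG.4457, the gene most like it, in log2 CPM, with root part as colour and root condition as symbol. The points follow 1 line in both datasets (Pearson correlations of 0.979 and 0.983), and most dying and thick taproots lie on it at lower levels of both genes.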

How the data were processed

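RNA was sequenced as stranded libraries of paired reads. The authors trimmed the reads, removed ribosomal RNA, mapped them to the *Q. robur* genome Qrob_PM1N with STAR and assembled genes with StringTie. The authors then quantified each gene with RSEM after alignment with Bowtie 2, which gave the expected counts they deposited. The TPM values deposited beside them rest on the same estimates, corrected for gene length and library size. The FPKM column and the transcript tables did not enter the work.

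Expected counts were rounded, filtered with filterByExpr (minimum count 10), scaled by TMM and tested with edgeR 4.0.16 in R 4.3.3 by quasi-likelihood, with the matched pair as covariate and Benjamini-Hochberg adjustment over all genes. TPM described levels. CPM were scaled by TMM, with a prior count of 1 on the log2 scale. Near-identical libraries had a coefficient of variation under 0.05 beyond counting noise over 5147 genes with a mean of 1000 to 10000 counts. A count of 0 was read against a floor of 3 counts, and this floor covers counting error only. The intervals of the fold changes rest on the standard errors of the quasi-likelihood fits, which include the spread between libraries. In comparisons of several pairs, these errors also include the differences between pairs, which the fits leave in the residual. The fits were also run on simulated counts of independent libraries. These held no near-identical libraries and no differences between pairs, so they cannot show how such features affect the p-values.

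Other settings tried were limma 3.58.1 on log2(TPM + 1), DESeq2 1.42.0, library size alone, no filter, a replicate block, a single fit of all groups, merged near-identical libraries, and the omission of each replicate or of groups with conflicting labels. The omission of the groups near-identical to each other and the restriction to normal roots were chosen after seeing the data. Genes named are *PIN2*, the other RT-qPCR panel and reference genes, and the 2 genes most like and the 2 most opposite to *PIN2* by the Pearson correlation of group means, taking the weaker of both datasets. The gene, this list and the comparisons were chosen with earlier results of these data known. Python 3.11.15, numpy 2.4.6, pandas 2.3.3 and matplotlib 3.10.9 were used for the rest.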

Additional observations from a re-analysis of the deposited data

Results flagged for a closer look

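The gap in *PIN2* between the elongation and the meristematic zone differed between dying and normal long taproots by 2.59 on the log2 scale, by a test of the interaction itself (edgeR, adjusted p = 2.23e-07). In 4 other comparisons, all libraries of 1 pair moved one way and all libraries of another pair the opposite way. These differences between pairs were not tested, and the values are log2 ratios of group means of CPM. For meristematic zones in rhizotrons against containers they were -0.31 in the thick long taproots 3K_dl_TN_rh against 3K_dl_TN_kon, and 0.82 in the normal long taproots 2K_dl_NN_rh against 2K_dl_NN_kon. The group 2K_dl_NN_rh shares near-identical libraries with 2K_dl_NT_kon. For lateral roots against meristematic zones they were -2.59 in KB_dl_NN_krh against K_dl_NN_krh and 2.05 in KB_dl_NT_kon against K_dl_NT_kon. For lateral roots against elongation zones they were -1.74 in KB_sr_TT_krh against SW_sr_TT_krh and 7.64 in KB_sr_NN_kon against SW_sr_NN_kon. For dying against active elongation zones they were -2.38 in SW_sr_NT_rh against SW_sr_NN_rh, computed with 3 counts in each dying library since none held more than 2, and 5.24 in SW_sr_TT_krh against SW_sr_TN_krh. Groups of 3 libraries are too small for a test of single outlying libraries.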

How the results depend on the processing

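Of the 10 calls for *PIN2*, 6 were made in the same direction under every alternative fit across all genes: both comparisons of lateral roots with meristematic zones, elongation against meristematic zones, lateral roots against elongation zones, thick meristematic zones of Dataset 1 and dying meristematic zones of Dataset 2. The separate permutation test over pairs did not call lateral roots against meristematic zones of Dataset 2, with p = 0.109, or 0.219 on log2(TPM + 1). Of 328 alternative values, 280 kept direction and side of the threshold, 11 lost and 17 gained a call, and 20 changed sign, all of the last in comparisons without a call. Where a value changed, the cause was not tested. Values below are log2 fold changes with adjusted p.

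For long against short meristematic zones of Dataset 1, limma gave -0.44 (0.0507), library size alone -0.39 (0.0791), a single fit of all groups -0.55 (0.0973), and leaving out 1 replicate number -0.67 to -0.38. For medium against short, leaving out 1 replicate number gave -0.41 to 0.07, with 0.066 without replicate 2. For long against medium, limma gave 0.050, library size alone 0.058, the omission of conflicting labels 0.33, and leaving out 1 replicate number -0.066 to 0.078. In lateral roots of Dataset 1, the long against the medium class gave 0.0040 with DESeq2, 0.13 with limma, 0.13 with library size alone, and -0.10 to 0.17 when leaving out 1 replicate number, and rhizotron against container gave -0.12 with limma, -0.10 with library size alone and -0.017 with near-identical libraries merged.

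For dying meristematic zones of Dataset 1, DESeq2 gave -1.77 (0.00832), limma -1.94 (0.0196), the single fit -1.85 (7.12e-09) and the omission of the groups near-identical to each other -2.87 (0.00481). That omission gave -0.036 for rhizotrons and -0.22 for 8 against 7 weeks, where the single fit gave 1.00 (1.20e-04). For summer against spring sowing, DESeq2 gave -0.32 (0.0240), limma -0.31 (0.0253) and library size alone -0.33 (0.0170).

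In Dataset 2, long against medium elongation zones gave 2.66 (0.0102) with DESeq2, 2.70 (2.94e-07) in the single fit and 2.02 to 3.18 when leaving out 1 replicate number. Lateral roots of the long against the medium class gave 0.77 (0.0323) with DESeq2 and 0.77 (0.00412) in the single fit. With near-identical libraries merged, thick and dying meristematic zones gave -3.52 (0.0600), rhizotron lateral roots -0.79 (0.40) and the difference between zones 2.49 (0.237). With limma, dying elongation zones gave 0.93 (0.0121), lateral roots of the dying class 0.050, transplanted against container meristematic zones 0.45 (0.0228), transplanted against rhizotron ones 0.28 (0.00963), rhizotron elongation zones -0.041 and rhizotron lateral roots -0.83 (0.0584). Library size alone gave 0.22 (0.0305) for transplanted against rhizotron meristematic zones and 0.040 for lateral roots of the dying class, for which the single fit gave 0.0010 and leaving out 1 replicate number -0.037 to 0.019. For rhizotron lateral roots, leaving out 1 replicate number gave -1.16 to -0.84. With normal roots alone, the exact permutation test over 5 pairs gave -6.49 for elongation against meristematic zones, 4.99 for lateral roots against elongation zones and -1.50 for lateral roots against meristematic zones, each at 0.0625, the smallest p it allows.

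Library size alone moved the median gene by -0.25 to 0.16 on the log2 scale, and by over 0.1 in 6 comparisons. The number of all genes called, with a median of 5108 over the 31 comparisons, had a median of 486 with near-identical libraries merged, 845 without replicate 2 and 1526 without replicate 3, and it was over 1.5 times higher with DESeq2 in 11 comparisons and in the single fit in 14. Replicate numbers were not used to pair the libraries in the main fits. Deviations of same-numbered libraries correlated with a median of 0.005, against -0.001 for libraries with other numbers. The correlation was over 0.1 in 51 of 294 same-numbered pairs (17.3%), against 9.9% of pairs with other numbers. Whether libraries were paired in some groups was not tested. With the replicate block, 30 of 31 results kept direction and call, and lateral roots of the long against the medium class of Dataset 1 gave 0.019, while the count of all genes called fell by over 1.5 times in 5 comparisons. Near-identical libraries limit what the p-values can carry, and 13 of 30 elongation zone libraries held at most 24 counts of *PIN2*.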

Other observations

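The gene *EF*, an elongation factor that was a reference gene of the study's RT-qPCR, followed *PIN2* in part, with Pearson correlations over group means of 0.799 in Dataset 1 and 0.632 in Dataset 2. Its median of group means was 1585 TPM in lateral roots, against 2845 TPM in meristematic zones of Dataset 1, where it had a log2 fold change of -0.91. In Dataset 2 it was 1820 TPM in elongation zones, against 2909 TPM in meristematic zones, with a fold change of -0.70. The other reference gene, *UBQ*, which encodes ubiquitin, had 162 TPM in lateral roots, against 159 TPM in meristematic zones of Dataset 1, and 144 TPM in elongation zones, against 153 TPM in meristematic zones of Dataset 2. Its correlations with *PIN2* were 0.046 and 0.311. A ratio of *PIN2* to *EF* would thus show a smaller difference between these parts than a ratio of *PIN2* to *UBQ*.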
